A study of Homo sapiens with 22 samples.

Results

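The libraries described here are the 2 whose deposited names carry the word ClarkMut, of 22 piggyBac insertion libraries made in K562, an established line of human leukemia cells with erythroid features. They were compared with the 10 hyPBase libraries and, as a second comparison that shares the same 2 ClarkMut libraries, with the 10 hyPBase-centrip libraries. For the ClarkMut libraries the title and the transposase tag name the hyPBase-centrip helper, while the description names the hyPBase helper, so the helper they received is not settled by the labels. The sources used here do not say what ClarkMut stands for or how hyPBase-centrip differs from hyPBase. Cells of all 3 groups received 5 µg of a barcoded, puromycin-selectable self-reporting transposon and 5 µg of helper plasmid by electroporation, and were grown in 2 µg/ml puromycin for 11 days. Transfections were plated together before RNA was isolated, so a library is a pool. The ClarkMut pair cannot be told apart from a separate round of preparation, and p-values measure the spread between libraries only.

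piggyBac is a DNA transposon that a transposase cuts out of a plasmid and pastes into the genome at the tetranucleotide TTAA, and hyPBase is a hyperactive form of that transposase. Its insertions are known to be frequent in open and transcribed chromatin, and the enzyme is known to be drawn to sites of BET proteins. In Calling Cards, a self-reporting transposon carries a promoter that transcribes into the flanking genome, so that RNA sequencing reads out where each copy landed, in which orientation and with which barcode. Each line of the deposited files was counted as 1 insertion, a combination of position, orientation and barcode.

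The bases beside the TTAA carry one of the differences described here. The following contexts were those with the smallest adjusted p-values, read 5′ to 3′ in the orientation of the insertion, with the TTAA in capitals. The first 5 were used less in ClarkMut than in hyPBase and the last 5 more.
lower 1: gtTTAAac
lower 2: ttTTAAac
lower 3: gtTTAAaa
lower 4: atTTAAag
lower 5: ttTTAAag
higher 1: taTTAAca
higher 2: caTTAAca
higher 3: caTTAAct
higher 4: tgTTAAgt
higher 5: tgTTAAct

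Target sites in the genome are shown for 6 of the 10 kb bins named further on, to show what a hit position looks like. Each is the TTAA with the most insertions of its bin over the 12 ClarkMut and hyPBase libraries, on the plus strand of hg38. In the NNT bin the TTAA was chr5:43772638-43772641, outside any annotated gene. In the RTN4 bin it was chr2:55100066-55100069, in an intron of RTN4. In the SLC38A2 bin it was chr12:46556275-46556278, in an intron of the noncoding gene SLC38A4-AS1. In the CD46 bin it was chr1:207765448-207765451, in an intron of CD46. In the EFCAB2 bin it was chr1:245079164-245079167 and in the PSMA1 bin chr11:14563109-14563112, both intronic.
NNT bin: gtagtctttctccTTAAaagagtaatagca
RTN4 bin: ctaatctgctactTTAAatgatgcaatact
SLC38A2 bin: tttagcaggttttTTAAtagagtctgagaa
CD46 bin: catttctgtctaaTTAAtaaagacctaatt
EFCAB2 bin: aattttattgtttTTAAtgccattgcttat
PSMA1 bin: gacattaaagtatTTAAtggggatttagaa
The NNT site held 14 and 16 insertions in the ClarkMut libraries and 24 to 35 in the hyPBase libraries, which is 5.88 and 8.63 CPM against 10.6 to 18.04, without overlap (CPM, insertions scaled to the same library total in every library). At the SLC38A2 site the ClarkMut values of 10.1 and 10.8 CPM lay within the hyPBase range of 9.62 to 15.25. The CD46 site held 6 and 2 of the 34 and 26 ClarkMut insertions of its bin, and at most 3 insertions in any hyPBase library.

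The ClarkMut libraries held 2379148 and 1853123 insertions, and the hyPBase libraries 1508684 to 2909622 with a median of 2497560, and the groups overlapped (exact permutation test, two-sided, p = 0.394). Reads per insertion were 3.49 and 3.36 in ClarkMut and 3.01 to 5.39 in hyPBase. Column 4 of the files, the reads per insertion, was used only for this depth, for filters and for thinning libraries to equal reads. All tests of 1 value per library were exact permutation tests on 2 against 10 libraries, two-sided, for which 0.0303 is the smallest possible p. The deleted region of chromosome 9p that marks K562 (CDKN2A, CDKN2B and MTAP) held 0 insertions in both ClarkMut libraries and at most 1 in any hyPBase library. Lymphoid and myeloid marker genes held 1.88 and 1.97 CPM per 10 kb of gene in ClarkMut and 1.64 to 2.03 in hyPBase, against 9.29 and 10.1 and 10.3 to 11.2 over the erythroid transcription factors. The number of insertions that the ClarkMut libraries shared with each other was 1.062 times that expected from their positions and barcodes, and with hyPBase libraries 0.985 to 1.00 times. Among the 45 pairs of hyPBase libraries the median ratio was 0.986, but it was 1.16 between replicates 6 and 7 and 1.13 between replicates 3 and 6 and between replicates 7 and 8. Libraries of a group may therefore not all be separate samples, whereas the tests treat each as one.

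Insertions of the ClarkMut libraries lay more often in genes and less often at promoters than those of either other group. Enrichment in the bodies of protein-coding genes, the share of insertions there over the share of TTAA sites there, was 1.239 and 1.244 in ClarkMut and had a lowest, median and highest value of 1.190, 1.202 and 1.208 in hyPBase. Both ClarkMut libraries lay above every hyPBase library, with a difference of means of 0.0410 (p = 0.0303, exact permutation test). Over all GENCODE genes, coding or not, the difference was 0.0176 (p = 0.0303, exact permutation test). In percent, 55.3 and 55.6 of ClarkMut insertions and 53.1 to 53.9 of hyPBase insertions lay in gene bodies. Against hyPBase-centrip, which ranged from 1.182 to 1.202, the groups did not overlap either (p = 0.0303, exact permutation test).

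Promoter enrichment, the same ratio within 1 kb of the start site of protein-coding genes, was 4.26 and 4.61 in ClarkMut. The hyPBase libraries had 5.23 at the lowest, 5.45 at the median and 5.72 at the highest, above both ClarkMut libraries, and the means differed by -1.02 (p = 0.0303, exact permutation test). The hyPBase-centrip libraries had 5.27 to 6.02 and also lay above both (p = 0.0303, exact permutation test). With each position and orientation counted once, whatever the number of barcodes, the difference from hyPBase was -0.334 and missed the threshold (p = 0.0606, exact permutation test). Within 5 kb of the start it was -0.185 (p = 0.0303, exact permutation test). Within 1 kb it was -0.841 with ClarkMut replicate 2 alone and -1.19 with replicate 1 alone.

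**Figure D1:**
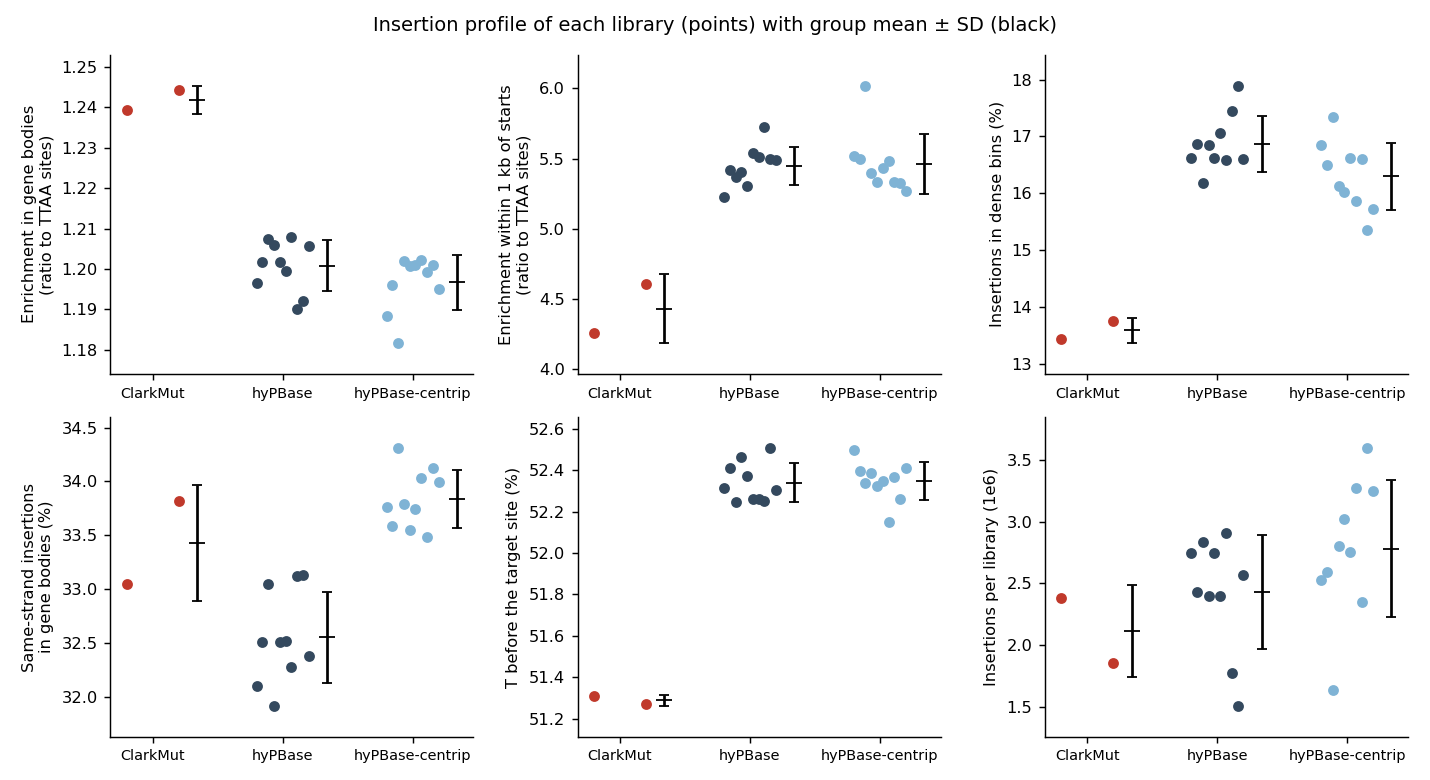
Each point is 1 library and the black mark beside it the group mean ± SD (ClarkMut n = 2, hyPBase n = 10, hyPBase-centrip n = 10), for gene body and promoter enrichment (ratios), shares in percent, and insertions per library in units of 1e6; the vertical axes do not start at 0. ClarkMut points lie apart from all points of both other groups for gene bodies, promoters, dense bins and T before the target site, and overlap with hyPBase for same-strand share and number of insertions.

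Fewer ClarkMut insertions fell in the densest part of the genome. Dense bins were the 2907 10 kb bins, 1% of those with a TTAA, that held the most insertions in the hyPBase-centrip libraries, which take no part in the comparison with hyPBase. They took 13.4% and 13.7% of ClarkMut insertions and 16.2%, 16.7% and 17.9% of hyPBase insertions (lowest, median and highest). The groups did not overlap and differed by 3.28 percentage points (p = 0.0303, exact permutation test). The hyPBase-centrip libraries had 15.4% to 17.3%, given without a test because the bins were chosen on them. Thinning all 12 libraries to 1508684 insertions left the values at 13.4% and 13.8% against 16.2% to 17.9%. Counted once per position and orientation, the difference shrank to -0.724 points (p = 0.0909, exact permutation test). Such counts have a ceiling in dense bins, where 31.4% and 27.5% of all positions and orientations were hit in ClarkMut and 26.6% to 37.3% in hyPBase.

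ClarkMut insertions were relatively more frequent at intermediate density. The next class, bins ranked 1% to 5%, took 19.6% and 19.5% of ClarkMut insertions and 20.8% to 21.3% of hyPBase insertions. From there the order turned. Bins ranked 5% to 10% took 13.7% and 13.5% against 12.9% to 13.1%, those ranked 10% to 25% took 23.5% and 23.2% against 20.7% to 21.5%, and those ranked 25% to 50% took 18.7% and 18.7% against 16.6% to 17.2%. In these 5 classes the groups did not overlap (Benjamini-Hochberg adjusted p = 0.0364 over 6 classes, exact permutation test). The shares of a library add up to its whole, so the classes are not independent of one another. In the sparsest 50% of bins the ClarkMut values of 11.1% and 11.3% lay within the hyPBase range of 10.6% to 11.3% (adjusted p = 0.333, exact permutation test).

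**Figure D2:**
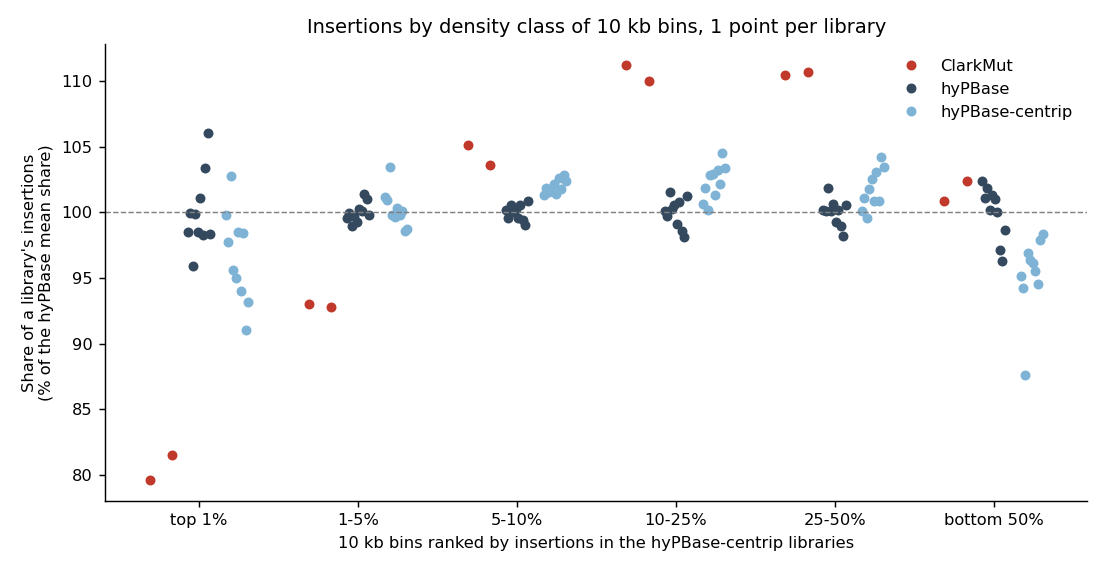
Each point is the share of 1 library's insertions in a density class of 10 kb bins, as a percent of the mean share of the 10 hyPBase libraries, which is the dashed line at 100. The ClarkMut points lie lowest in the top 1% of bins, where they had 13.4% and 13.7% of insertions, and above all hyPBase points in the 3 classes between 5% and 50%.

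The smaller share in dense bins was found in promoters, in gene bodies and elsewhere. Of insertions in gene bodies outside promoters, 13.0% and 13.3% lay in dense bins in ClarkMut and 15.9% to 17.5% in hyPBase. Of insertions outside genes and promoters, 13.5% and 13.7% did so in ClarkMut and 16.1% to 17.9% in hyPBase. For promoters the gap was narrower, with 20.9% and 21.3% against 21.5% to 23.3%. None of the 3 sets of values overlapped (p = 0.0303 for each, exact permutation test).

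Insertions were also spread over more sites. Thinned to 1508684 insertions each, the ClarkMut libraries occupied 1124874 and 1120581 distinct TTAA positions, and the hyPBase libraries 1036470 to 1072640 (p = 0.0303, exact permutation test). The number of barcodes per hit position and orientation was 1.24 and 1.25 in the thinned ClarkMut libraries and 1.29 to 1.34 in hyPBase (p = 0.0303, exact permutation test). Before thinning, distinct positions numbered 1616030 and 1323888 against 1039222 to 1774993, and the groups overlapped.

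The base before the TTAA differed. Across the genome 41.1% of TTAA sites have a T before them, and insertions favored such sites in every library, at 51.3% and 51.3% in ClarkMut and 52.2% to 52.5% in hyPBase. The groups did not overlap and differed by -1.05 points (p = 0.0303, exact permutation test). The hyPBase-centrip libraries, at 52.1% to 52.5%, also lay above both (p = 0.0303, exact permutation test). An A after the TTAA, which is a T before it on the other strand, was found at 53.1% and 53.0% in ClarkMut and 53.7% to 54.0% in hyPBase. A G before the site, which is disfavored, was found in 5.56% and 5.64% of ClarkMut insertions and 5.18% to 5.29% of hyPBase insertions, against 13.9% of all TTAA sites. Of 80 combinations of base and position within 10 bases of the TTAA, 33 did not overlap between the groups, and over that family none passed the threshold (smallest adjusted p = 0.0735, exact permutation test).

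The difference in flanking bases was found outside dense bins. Outside them a T preceded 51.4% and 51.3% of ClarkMut insertions and 52.5% to 52.8% of hyPBase insertions (p = 0.0303, exact permutation test). Inside them the values were 50.7% and 51.0% against 50.6% to 51.2%, which overlap (p = 0.515, exact permutation test).

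With 2 bases on each side, 45 contexts were used more in ClarkMut than in hyPBase (17.6% of all) and 55 less (21.5%), by edgeR's quasi-likelihood test with Benjamini-Hochberg adjusted p below 0.05. All 16 contexts with T before and A after were among those that fell. Of the 112 contexts with G before or C after, 41 rose and 0 fell. The changes were small, between -0.23 and 0.25 on the log2 scale. The palindrome gtTTAAac took 4405 and 4374 CPM in ClarkMut and 4678 to 4853 in hyPBase, without overlap (log2 fold change -0.14 ± 0.013 SE, adjusted p = 8.02e-08). At ttTTAAac the values were 13966 and 14157 against 14700 to 15002 (log2 fold change -0.10, adjusted p = 3.16e-07). The context taTTAAca rose from 3236 to 3361 CPM in hyPBase to 3634 and 3655 in ClarkMut (log2 fold change 0.12 ± 0.015 SE, adjusted p = 1.06e-06). The little used context tgTTAAct had 324 and 338 CPM against 253 to 299 (log2 fold change 0.25, adjusted p = 0.000236). Against hyPBase-centrip 49 contexts rose (19.1%) and 51 fell (19.9%). Scaled to library size without TMM, the comparison with hyPBase gave 82 higher and 21 lower. With TMM, 23 contexts rose and 33 fell without ClarkMut replicate 1, and 27 rose and 28 fell without replicate 2.

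Among gene bodies more genes lost insertions than gained them relative to the typical gene. Of 13765 protein-coding genes tested, 239 had more insertions in ClarkMut than in hyPBase (1.74%) and 678 had fewer (4.93%), by edgeR with TMM scaling. The median change was 1.31-fold among the genes that rose and 1.27-fold among those that fell. The balance depends on the scale: relative to all insertions of a library the median gene lay 0.11 higher in ClarkMut on the log2 scale, and 926 genes rose (6.73%) and 316 fell (2.3%). All 239 and 316 of the 678 were called in the same direction on both scales. With 1 ClarkMut library left out, 76 and 300 (without replicate 1) or 85 and 344 (without replicate 2) passed. Counted once per position and orientation, 19 rose and 160 fell, of which 18 and 148 were among the calls above, and 238 of 238 and 658 of 675 genes tested kept their direction.

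Genes that fell were most numerous among densely hit genes. When the tested genes were ranked by hyPBase-centrip insertions per TTAA, the densest 2752 held 399 of the genes that fell and 19 of those that rose, with a median log2 fold change of -0.13. In the middle group of 2753 genes 89 rose and 51 fell, with a median of 0.066. The sparsest group of 2753 had 13 that rose and 109 that fell. Smaller changes can be called in genes with more insertions, so these counts also reflect how many insertions the genes held.

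**Figure D3:**
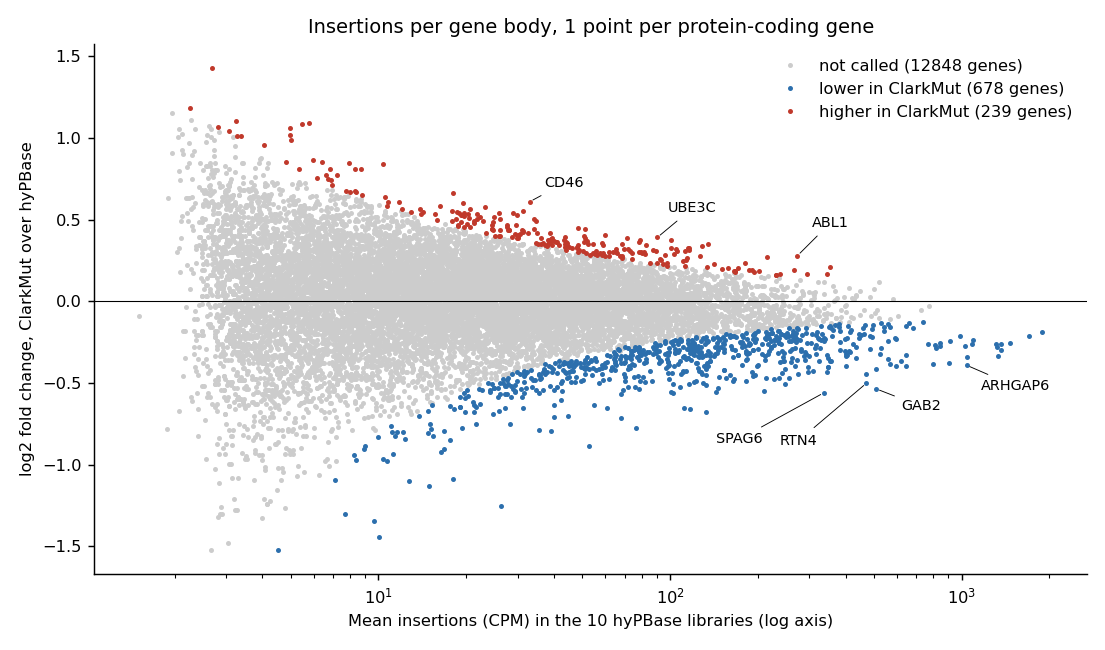
Each point is 1 of 13765 protein-coding genes, at its mean CPM over the 10 hyPBase libraries (log axis) and its log2 fold change of ClarkMut over hyPBase, with 239 genes higher in red and 678 lower in blue. Genes with the most insertions lie mostly below 0.

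Among the genes that fell, GAB2 had the smallest adjusted p. It encodes an adaptor protein that acts downstream of BCR-ABL1 (chr11:78215293-78418348, ENSG00000033327.13) and held 397 and 349 CPM in ClarkMut and 470, 506 and 561 in hyPBase (lowest, median and highest), without overlap (log2 fold change -0.54 ± 0.048 SE, adjusted p = 3.56e-18). RTN4, which encodes the reticulon Nogo (chr2:54972187-55112621, ENSG00000115310.19), held 372 and 338 against 436, 475 and 484 (log2 fold change -0.50, adjusted p = 4.21e-17). With positions counted once, RTN4 changed by -0.12 and lost its call (adjusted p = 0.479), while GAB2 kept it at -0.30 (adjusted p = 0.000255). ARHGAP6, a GTPase-activating protein gene on chromosome X, held 852 and 846 against 985, 1040 and 1086 (log2 fold change -0.39, adjusted p = 9.85e-17). SPAG6, a sperm flagellum gene on chromosome 10, held 255 and 233 against 316, 344 and 356 (log2 fold change -0.56, adjusted p = 1.85e-16). The other named genes that fell were SAMSN1, an adaptor of hematopoietic cells, CRADD, a death domain adaptor, and RHOH, a small GTPase of hematopoietic cells, with log2 fold changes of -0.45 to -0.38. For SAMSN1 and RHOH the call was lost with positions counted once (adjusted p = 0.0665 and 0.662).

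ABL1, the kinase whose fusion with BCR drives K562 cells (chr9:130713043-130887675, ENSG00000097007.20), had the smallest adjusted p among the genes that rose. It held 349 and 363 CPM in ClarkMut and 254, 276 and 287 in hyPBase, without overlap (log2 fold change 0.28 ± 0.049 SE, adjusted p = 4.44e-06). MAPKAP1, a subunit of the kinase complex mTORC2 on the same chromosome, held 184 and 185 against 129, 134 and 146 (log2 fold change 0.35, adjusted p = 5.21e-06). CD46, a complement regulator on the cell surface (chr1:207752037-207795513, ENSG00000117335.21), showed the largest fold of these 8 genes, with 52.1 and 57.2 against 25.4, 33.9 and 38.8 (log2 fold change 0.61 ± 0.11 SE, adjusted p = 1.87e-05). UBE3C, a ubiquitin ligase, held 128 and 127 against 84.0, 91.9 and 98.0 (log2 fold change 0.39, adjusted p = 2.37e-05). AGAP1, MAP3K4, CHCHD3 and ASH1L, which encode an Arf GTPase-activating protein, a MAP kinase kinase kinase, a mitochondrial inner membrane protein and a histone methyltransferase, rose by 0.27 to 0.37 on the log2 scale. Counted once per position and orientation, MAP3K4 and ASH1L lost their calls (adjusted p = 0.0503 and 0.226). With at least 2 reads per insertion CD46 lost its call (adjusted p = 0.0764), as did CHCHD3 without ClarkMut replicate 1 (adjusted p = 0.0534) and ASH1L without replicate 2 (adjusted p = 0.116).

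**Figure D4:**
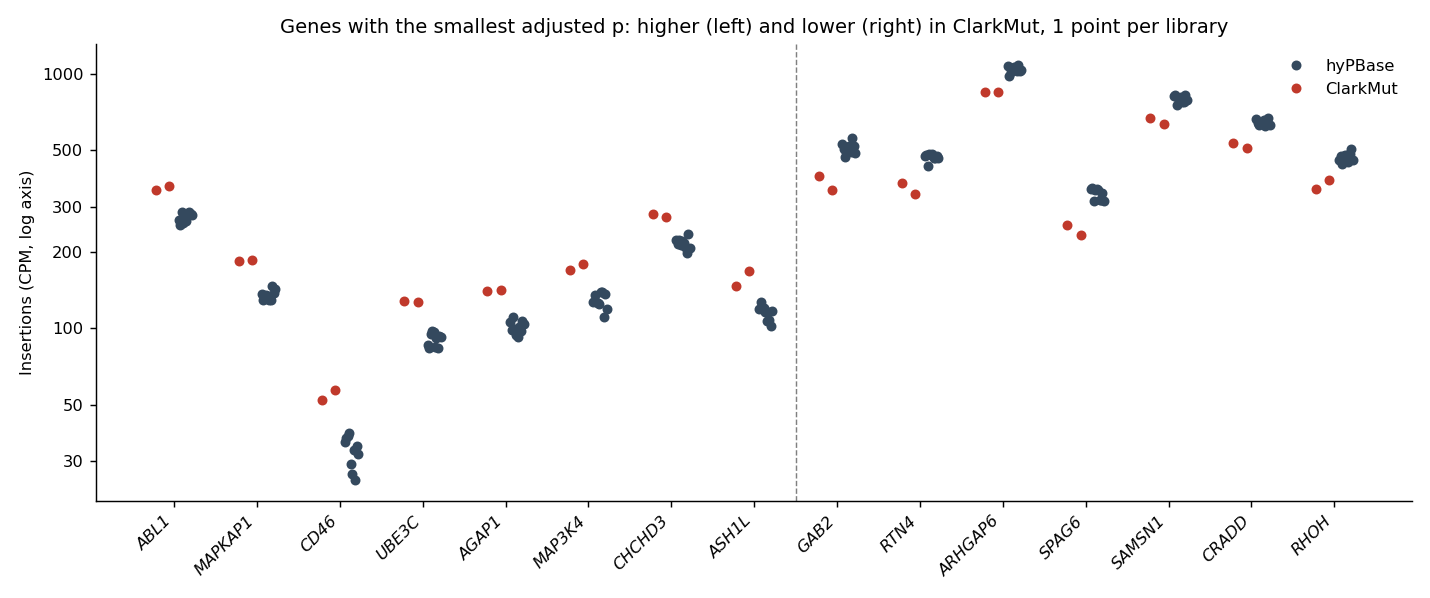
Insertions in CPM (log axis) in each of the 2 ClarkMut and 10 hyPBase libraries for the 8 genes that rose (left of the dashed line) and 7 that fell (right) with the smallest adjusted p-values. In every gene both ClarkMut points lie on 1 side of all hyPBase points, and the genes were chosen by this same comparison; CD46 is the least hit, at 25.4 to 57.2 CPM.

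Against hyPBase-centrip, 208 genes rose (1.47%) and 495 fell (3.51%) of 14102 tested. Relative to library size 772 rose and 203 fell. Without ClarkMut replicate 1, 31 rose and 151 fell, and without replicate 2, 52 and 180. The ClarkMut libraries are the same as in the comparison with hyPBase, so the values are given side by side only. The 7 named genes that fell against hyPBase fell by 0.29 to 0.47 on the log2 scale against hyPBase-centrip. Of the 8 that rose, ABL1 changed by 0.16 (adjusted p = 0.0567) and AGAP1 by 0.17 (adjusted p = 0.162) and did not pass, and the other 6 did.

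Gene lists were described by their counts beside those of all 13765 genes, whose median log2 fold change was 0.0085 and of which 1.74% rose and 4.93% fell. The lists, and the members named after their values were seen (BCR, STAT5B, BCL2L1, PIM1 and PTPRD), give no independent support. Of 9 genes of BCR-ABL1 and survival signaling all were tested, and 2 rose and 4 fell, against 1.74% and 4.93% of all genes, with a median of -0.18. Beside ABL1, BCR rose, with 132 and 138 CPM against 89.2, 99.5 and 112 (log2 fold change 0.33, adjusted p = 0.000565). With positions counted once its adjusted p was 0.167. Beside GAB2, the transcription factor STAT5B, the survival protein gene BCL2L1 and the kinase PIM1 fell. BCL2L1 held 153 and 134 against 151, 167 and 181, which overlap (log2 fold change -0.30, adjusted p = 0.000772). Relative to library size 3 of the 9 genes rose and 3 fell, against 6.73% and 2.3% of all genes. With positions counted once 1 rose and 1 fell, against 19 and 160 of 12764 genes. STAT5B was not called relative to library size (adjusted p = 0.347), BCL2L1 not without ClarkMut replicate 2 (adjusted p = 0.181), and PIM1 not without either ClarkMut library (adjusted p = 0.102 and 0.15). Of 10 erythroid transcription factors and cofactors 8 were tested, and 2 fell (median -0.19; 4.93% of all genes fell). LMO2, a bridging factor of the GATA1 complex, held 96.7 and 119 against 120, 133 and 145, without overlap (log2 fold change -0.42, adjusted p = 7.04e-06), and MYB, a factor of immature blood cells, fell by 0.31 on the log2 scale (adjusted p = 0.00236). Neither was called with positions counted once (adjusted p = 0.776 and 0.429), LMO2 was not called without ClarkMut replicate 1 (adjusted p = 0.155), and MYB was not called relative to library size (adjusted p = 0.0571).

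Of 8 globin genes 5 were tested and 2 fell, against 4.93% of all genes: HBG2 with 506 and 530 CPM against 507, 542 and 609 and HBE1 with 454 and 486 against 464, 494 and 562.1. The groups overlap for both genes, and the annotated spans of the genes overlap each other, so that their insertions are largely the same (-0.16 and -0.17 on the log2 scale, adjusted p = 0.00912 and 0.0068). Relative to library size neither was called (adjusted p = 0.395 and 0.322), and with positions counted once the log2 fold changes were 0.03 and 0.04 and neither was called (adjusted p = 0.948 and 0.921). Of 8 megakaryocyte and stem cell genes 5 were tested and 2 fell, against the same 4.93%, with a median of 0.030 over the 5. RUNX1, a transcription factor of blood formation, held 1850 and 1704 against 1797, 1883 and 1994, which overlap (log2 fold change -0.18, adjusted p = 1.67e-05). GATA2, a factor of blood stem cells, fell by 0.44 (adjusted p = 0.0397). Neither was called relative to library size (adjusted p = 0.054 and 0.124). On that scale 1 of the 5 tested genes was called higher and 0 lower, against 6.73% and 2.3% of all genes.

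Of 10 long genes of neurons, which held 1.01 and 1.03 CPM per 10 kb in ClarkMut and 1.02 to 1.09 in hyPBase, all were tested and 4 fell, against 4.93% of all genes (median -0.12). With positions counted once 4 of the 10 fell, against 160 of 12764 genes. Relative to library size 3 fell, against 2.3% of all genes. LRP1B, a lipoprotein receptor family gene, held 164 and 158 CPM against 166, 190 and 202, without overlap (log2 fold change -0.32, adjusted p = 0.000111). The call held with positions counted once (adjusted p = 5.96e-05). PTPRD and CNTNAP2 fell as well, but the groups overlap for CNTNAP2. Without ClarkMut replicate 1 neither was called (adjusted p = 0.0839 and 0.0536), nor was CNTNAP2 relative to library size (adjusted p = 0.0653). Of the 9 heme synthesis and iron uptake genes, the 8 tested BET proteins and elongation factors and the 7 tested lymphoid and myeloid markers, 0 passed in edgeR with TMM or in DESeq2. With TMM, 2, 1 and 2 of them had an unadjusted p below 0.05. Among all 13765 genes, 1097 rose and 1511 fell at that level. Relative to library size 1 of the 8 tested genes of the second list was called higher, against 6.73% of all genes. It was MED1, a Mediator subunit gene (log2 fold change 0.54, adjusted p = 0.0245). MED1 was also called higher against hyPBase-centrip with TMM (0.51, adjusted p = 0.0497), where 1.47% of all genes rose.

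At single promoters few changes were called. Of 4229 promoters with enough insertions 0 rose and 1 fell (0.0236%) relative to the typical promoter in edgeR, and 163 and 166 had an unadjusted p below 0.05. DESeq2 called 0 in either direction. The promoter called was that of UTP23, which encodes a ribosome biogenesis factor, with 2 and 3 insertions in ClarkMut and 9 to 24 in hyPBase, or 0.841 and 1.62 against 5.35, 7.15 and 8.46 CPM (log2 fold change -2.19 ± 0.43 SE, adjusted p = 0.039). It lost its call without either ClarkMut library (adjusted p = 0.743 and 0.258), and without hyPBase replicate 1, 3, 7 or 8. Its window overlaps that of EIF3H, whose start lies close by on the other strand, so the insertions cannot be assigned to one of them. No promoter passed in the other direction; IDE and TMEM219 had the smallest p, at 1.22 and 1.18 on the log2 scale (adjusted p = 0.0764 and 0.095).

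Relative to all insertions of the library, however, the median promoter lay 0.37 lower in ClarkMut on the log2 scale, and 286 promoters fell (6.76%) and 0 rose. Of these NCOA7, a nuclear receptor coactivator gene, had the smallest adjusted p, a choice made after the values were seen. It held 21.0 and 24.8 CPM against 38.8, 42.5 and 52.1, without overlap (log2 fold change -0.93 ± 0.13 SE). The promoter of AGA, a lysosomal enzyme gene, held 7.99 and 9.17 against 19.2, 20.5 and 21.9 (log2 fold change -1.27 ± 0.19 SE). UTP23 and EIF3H, whose windows overlap, were among the 286 as well.

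In 10 kb bins, 281 of 95527 rose (0.294%) and 2444 fell (2.56%). Of the bins that fell 1417 were dense bins, which is 58.0% of them, while 3.04% of the tested bins were dense. Among the 2907 dense bins 48.7% fell, 2 rose, and 95.6% had a negative log2 fold change, with a median of -0.36. Dense bins also have the most insertions, so smaller changes can be called there. Of the bins that rose 83.6% overlapped a protein-coding gene, of those that fell 53.5%, and of all tested 63.5%. The median change was 1.98-fold among bins that rose and 1.51-fold among bins that fell. Relative to library size, 418 of the 95527 bins rose and 1718 fell. Against hyPBase-centrip, with TMM, 217 rose (0.201%) and 1812 fell (1.67%) of 108224.

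These calls depend on counting barcodes. With each position and orientation counted once, 0 of 80609 tested bins rose and 3 fell. At an unadjusted p below 0.05 there were 1705 and 2091 of the 80609, against 4585 and 7591 of 95527 with barcodes counted. The bins that fell then had a median log2 fold change of -0.29 in place of -0.59, and 2375 of the 2424 tested kept their direction. Those that rose had a median of 0.80 in place of 0.99, and 261 of 261 kept their direction. DESeq2 called 15 and 2215. Leaving out ClarkMut replicate 1 left 62 and 754, and leaving out replicate 2 left 70 and 1206.

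The bin with the smallest adjusted p that fell lay 62596 bp from the mitochondrial transhydrogenase gene NNT (chr5:43770001-43780000), and held the site gtagtctttctccTTAAaagagtaatagca. It held 27.3 and 23.2 CPM in ClarkMut and 50.7, 65.1 and 74.9 in hyPBase, without overlap (log2 fold change -1.39 ± 0.13 SE, adjusted p = 7.54e-23). The RAD21 bin, in the gene of a cohesin subunit, held 52.1 and 39.9 against 81.8, 96.4 and 107 (log2 fold change -1.09, adjusted p = 8.45e-22). The RTN4 bin (chr2:55100001-55110000) held 76.1 and 69.6 against 111, 129 and 138 (log2 fold change -0.86, adjusted p = 2.70e-18). The SLC38A2 bin lay 177228 bp from that amino acid transporter gene and held 95.4 and 73.4 against 127, 145 and 167 (log2 fold change -0.81, adjusted p = 4.93e-18). The other 3 bins fell by 0.60 to 1.18 on the log2 scale. Their nearest genes were EDEM1 (340043 bp away), CALB1 (94526 bp) and INTU (883271 bp). All 7 were dense bins, and none was called with positions counted once (adjusted p = 0.0525 for the NNT bin and 0.796 to 0.996 for the others).

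Of the bins that rose the one with the smallest adjusted p lay in CD46 (chr1:207760001-207770000). It held 14.3 and 14.0 CPM against 1.13, 4.87 and 9.16, without overlap (log2 fold change 1.33 ± 0.24 SE, adjusted p = 7.73e-06). EFCAB2 held the next, with 13.03 and 8.63 against 3.28, 4.38 and 5.64 (log2 fold change 1.32, adjusted p = 0.000149). The bin of PSMA1, a proteasome subunit gene, held 10.51 and 9.17 against 1.69, 3.76 and 5.42 (log2 fold change 1.32, adjusted p = 0.000447). Of the other 5, those 34780 bp from VPREB1 and in MED15, a Mediator subunit gene, were both on chromosome 22, with log2 fold changes of 0.76 and 1.15. None of the 8 was a dense bin, and counts in ClarkMut were 16 to 64 insertions. All 8 lost their calls with positions counted once, and all but the CD46 bin lost them without 1 or the other ClarkMut library. Without replicate 1 the log2 fold changes were 0.97 for EFCAB2, 1.22 for PSMA1 and 0.69 for VPREB1. Without replicate 2 the MED15 bin rose by 0.94.

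Orientation differed little. In protein-coding genes with no such gene on the other strand, 33.1% and 33.8% of ClarkMut insertions had the orientation of the gene, and 31.9%, 32.5% and 33.1% of hyPBase insertions, which overlap (p = 0.0909, exact permutation test). Outside dense bins the values were 32.5% and 33.2% against 31.2% to 32.4%, without overlap (p = 0.0303, exact permutation test). The hyPBase-centrip libraries had 33.5% to 34.3% and overlapped with ClarkMut (p = 0.212, exact permutation test). Plus orientation took 49.8% and 49.8% of ClarkMut insertions and 49.8% to 49.9% of hyPBase insertions (p = 0.394, exact permutation test).

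Gene by gene, the same-strand part was larger in ClarkMut than in hyPBase in 5 of 8519 genes (0.0587%) and smaller in 0 by edgeR, with 575 and 114 at an unadjusted p below 0.05. Genes that overlap a protein-coding gene of the other strand were left out of this fit. PDIA5, a protein disulfide isomerase gene, had 20.5% and 24.6% of insertions on its own strand in ClarkMut and 10.8% to 14.3% in hyPBase (log2 odds ratio 1.00 ± 0.23 SE, adjusted p = 0.0462). PPAT, an enzyme gene of purine synthesis, had 41.5% and 40.0% against 12.9% to 27.5% (log2 odds ratio 1.08, adjusted p = 0.0274). SGMS1, SMARCA2 and ZBTB33 were the others. None of the 5 was called without either ClarkMut library or against hyPBase-centrip, and none of the 4 that could be tested with positions counted once, all but ZBTB33, was called there. In the other direction BATF and LIG1 had the smallest p (adjusted p = 0.134 and 0.137).

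Shares of chromosomes moved by small amounts. Of 23 chromosomes 6 took a larger share of insertions in both ClarkMut libraries than in any hyPBase library (1, 9, 15, 16, 17 and 22), 7 a smaller one and 10 overlapped, and over that family no p passed the threshold (smallest adjusted p = 0.0536, exact permutation test). In the comparison with hyPBase-centrip 2 chromosomes lay above (1 and 7), 8 below and 13 overlapped, with 9, 15, 16, 17 and 22 among those that overlapped. Chromosome 22 took 1.31% and 1.34% in ClarkMut, 1.20% to 1.23% in hyPBase and 1.21% to 1.33% in hyPBase-centrip. Of its 270 tested genes, which include BCR, 11 rose and 5 fell, and of the 490 on chromosome 9, which include ABL1 and MAPKAP1, 20 rose and 24 fell, against 1.74% and 4.93% of all genes. When counts were scaled to the insertions on the same chromosome, without TMM, 862 genes rose and 316 fell. Scaled to the whole library without TMM, the counts were 926 and 316.

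The barcodes of the transposon pool were also used in other proportions. Of 21 barcodes 6 took a larger share in both ClarkMut libraries than in any hyPBase library, 10 a smaller one and 5 overlapped (adjusted p = 0.0398 for each that did not overlap, exact permutation test). The highest ratio of means was at the barcode cagt, with 1.42% and 1.39% against 0.932% to 0.986%. Against hyPBase-centrip 5 were above, 9 below and 7 overlapped. The part of these barcode shares in the differences described above was not tested.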

How the data were processed

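Deposited per library, and made by the authors before this work, was a list of insertions in hg38 with the count of sequencing reads behind each; the submitters' processing notes name Trimmomatic, BWA and SAMtools, and versions and filters are not given in the sources used here. Every line on chromosomes 1 to 22 and X was counted as 1 insertion; all of these lay on a TTAA. Insertions were assigned to GENCODE release 44 protein-coding gene bodies, to windows of 1 kb on each side of start sites, to 10 kb bins and to the 2 bases on each side of the TTAA in hg38.

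Features reaching 10 insertions in 2 or more libraries (orientation: in 10 or more) were tested with edgeR 4.0.16 (quasi-likelihood, TMM, Benjamini-Hochberg adjusted p below 0.05, R 4.3.3). SE is the standard error of the log2 fold change. CPM values are insertions scaled to the total of the library. DESeq2 1.42.0 was an alternative. Single values per library were tested by exact permutation (scipy 1.17.1). The fits were tested on simulated data. 95% Wilson intervals of shares reached at most 0.0926 percentage points to either side, which covers counting error only.

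Members and gene lists were chosen with earlier results of these data known. Named were the 8 called genes, promoters and bins (5 contexts, 5 orientation genes) per direction with the smallest adjusted p, or, with none called, the 2 with the smallest p, and up to 4 members per gene list, beside members named after their values were seen. Some genes and regions that this rule names are not reported here.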

Additional observations from a re-analysis of the deposited data

Results flagged for a closer look

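In groups of 10 libraries, the highest or lowest value was compared with its nearest neighbor by Dixon's criterion at its 95% critical value. Of 69 groups looked at, 3 had such a library, and chance gives about 1 in 20. In promoter enrichment hyPBase-centrip replicate 3 stood above the other 9 libraries of its group, at 6.0198 with the next at 5.522, so the distance between ClarkMut and that group is widest for this library. At RTN4, hyPBase replicate 3 was lowest of its group, at 435.76 CPM with the next at 467.07, and both ClarkMut libraries lay below it. At the promoter of IDE, hyPBase replicate 8 was highest, at 8.4569 CPM with the next at 4.7379, and it lay above both ClarkMut libraries. The causes were not tested.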

How the results depend on the processing

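The difference in gene body enrichment kept its direction and its side of the threshold under every alternative run with a test. For the share of T before the TTAA, only leaving out a library and dense bins were tried: the difference was -1.31 points outside dense bins (p = 0.0303, exact permutation test) and 0.111 points inside them (p = 0.515). Alternatives chosen after seeing the data were thinning to equal insertions, regions outside dense bins, density classes, single libraries left out of the flanking base, chromosome, barcode and hyPBase-centrip results, library size scaling against hyPBase-centrip and at 5 kb, and the 4-library fits without a replicate term. Counting each position and orientation once gave promoter enrichment a difference of -0.334 (p = 0.0606, exact permutation test) and dense bins one of -0.724 points (p = 0.0909). It left 19 genes higher and 160 lower, 0 promoters in either direction, 0 bins higher and 3 lower, and 0 genes with a changed orientation. Distinct positions, with a difference of -67704.5, went to 37046.7 at equal reads and to 62601.1 at equal insertions. Insertions per position and orientation passed the threshold at equal insertions (-0.0628). The plus-orientation difference of -0.0252 points became 0.00122 with at least 2 reads, neither past the threshold, and the same-strand difference passed outside dense bins (1.04 points). The causes were not tested.

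Scaled to library size, 926 genes rose and 316 fell, 286 promoters fell, 418 bins rose and 1718 fell, and 82 contexts rose and 21 fell. Against hyPBase-centrip the same scaling gave 772 and 203 genes, 2 and 340 promoters, 293 and 1238 bins, and 74 and 31 contexts. Scaled to the same chromosome, 862 genes rose, 316 genes fell and 284 promoters fell. The median of all genes then lies 0.10 above 0. With at least 2 reads per insertion, 138 genes rose and 426 fell, 0 promoters fell, 167 bins rose and 1364 fell, and 2 genes had a higher same-strand part. DESeq2 gave 109 genes higher, 0 promoters lower and 15 bins higher. Thinning to equal reads and a term for the log number of insertions each gave 0 promoters lower. Without the filter on low counts 3 promoters fell and 107 bins rose. Windows of 5 kb gave 35 promoters higher and 165 lower, or 30 and 337 relative to library size. Bins of 100 kb gave 638 higher and 1150 lower.

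Leaving out 1 library at a time, ClarkMut libraries included, gave 76 to 248 genes higher and 300 to 716 lower, 0 to 1 promoters lower, 62 to 302 bins higher and 754 to 2526 lower, 23 to 48 contexts higher and 28 to 61 lower, and 0 to 0 genes with a changed orientation. The lowest counts of genes, bins and contexts that rose came without ClarkMut replicate 1, and that of contexts that fell without replicate 2. The difference in promoter enrichment ranged from -1.19 to -0.841 and that in insertions per position and orientation from -0.134 to -0.0828, past the threshold without hyPBase replicate 9 (-0.118, p = 0.0364, exact permutation test). Against hyPBase-centrip, leaving out either ClarkMut library gave 31 to 52 genes higher and 151 to 180 lower, 0 to 0 promoters in either direction, 24 to 29 bins higher and 346 to 413 lower, and 31 to 33 contexts higher and 30 to 39 lower. With 1 ClarkMut library the lone sample is assumed to vary like the others.

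Libraries of the groups share replicate numbers 1 and 2. The deviations of same-numbered libraries from the mean of replicates 1 and 2 of their group had a correlation of -0.00495 over 95527 bins. Both pairs give the same value by construction, and counting error in single bins weakens it, so it cannot decide whether the libraries were paired. The numbers were not taken to pair them. With the replicate number as a block, on those 4 libraries, 110 genes rose and 497 fell, 0 promoters fell, 140 bins rose and 1436 fell, 12 contexts rose and 29 fell, and 0 genes changed in orientation. The same libraries without the block gave 93 genes higher, 0 promoters lower, 121 bins higher and 1426 lower, and 38 contexts higher and 58 lower.

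With 2 ClarkMut libraries, a test of 1 value per library cannot go below p = 0.0303, and whether their differences belong to the helper or to a separate round of preparation cannot be told apart. At this depth 4229 promoters of 19970 protein-coding genes passed the filter on low counts.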
